A study of Mus musculus with 26 samples.

Results

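Newly formed oligodendrocytes (NFOLs) of the mouse at postnatal day 7 (P7) were taken here as single wells in which the myelin genes Mbp, Mag, Mog, Mobp and Mal together made up at least 0.4% of the molecules. A well also needed at least 1000 molecules in all and fewer than 3 molecules of the collagen and matrix genes Col1a1, Col1a2, Col3a1, Lum and Dcn. Of 920 P7 wells that held at least 1000 molecules, on 15 chips, 105 met this rule, against 1514 such wells of 2496 in the whole series of 26 chips. The wells were thus chosen by the measured levels of the 5 myelin genes, so those levels, in any comparison, and all gene levels of NFOL wells against other wells of the same chips are given as a description without a test. The only tests that take in both NFOL wells and other wells are those of the difference between their regional effects.

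The study followed cells of the Pdgfra lineage by single-cell RNA sequencing (STRT-Seq, which counts individual molecules at the 5' end of transcripts) on 96-well chips, and all P7 cells were sorted for green fluorescent protein (GFP). Spinal cord cells (4 chips, numbered 10, 11, 12 and 26) and the brain cells of chips 21 and 22 came from Pdgfra-H2BGFP mice, in which a nuclear GFP is made from the Pdgfra locus and the protein can outlast Pdgfra RNA. The other brain cells came from Pdgfra-cre-ERT/RCE mice, in which tamoxifen marks Pdgfra-expressing cells and their progeny for good, given at E12.5 (txE12.5, 6 chips, 5 and 13 to 17) or at P3 (txP3, 3 chips, 18 to 20) with harvest at P7. No group lacked a reporter, both sexes were used, and no source ties a chip to a named animal. The file headers give 1 sample number each to the spinal cord chips (136), chips 21 and 22 (56) and the txP3 chips (163). The txE12.5 chips carry 161 or 162. The paper lists P7 spinal cord experiments of 1 and 4 chips, 1 P7 brain experiment, 1 txP3 experiment and more than 1 for txE12.5. Chips with the same number are thus likely repeat runs of 1 experiment, the 4 spinal cord chips among them. So n counts chips, not independent samples. A p-value over chips measures the spread between chips, which may be technical. Chip 9, for which the sources give conflicting ages, and the spinal cord chip 23, with 14 wells kept, were not part of the rule and held 0 NFOL wells. Chip 23 carries a sample number that the other spinal cord chips do not carry. The 15 chips held 89363 to 398533 molecules each. All 4 spinal cord chips among them carried 1 sample number in the file headers that no brain chip carried. Region, sample number and, for the txE12.5 and txP3 chips, mouse line thus cannot be told apart.

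Oligodendrocytes arise from precursors (OPCs) that carry the receptor Pdgfra and the proteoglycan Cspg4. OPCs leave the cell cycle and become committed precursors (COPs), which carry Gpr17, Bmp4 and Neu4, then newly formed oligodendrocytes, which begin to make the structural proteins of myelin, and at last mature cells that wrap axons. In the rodent, myelination begins in the spinal cord before most of the forebrain.

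NFOL wells made up a larger share of the sorted cells of the spinal cord than of the brain. On spinal cord chips 10, 11, 12 and 26 they were 21 of 57 wells (36.8%), 22 of 70 (31.4%), 16 of 57 (28.1%) and 11 of 27 (40.7%). On the Pdgfra-H2BGFP brain chips 21 and 22 they were 2 of 59 (3.39%) and 5 of 49 (10.2%). The lowest of these 4 spinal cord chips lay above the highest brain chip. Spinal cord chip 23, left out by the rule and with another sample number, held 0 NFOL wells of 14. The mean share was 34.3% ± 5.63 (SD, n = 4 chips) in the spinal cord and 6.80% ± 4.82 (n = 2) in the brain of the same mouse line, a difference of 27.5 percentage points (two-sided exact permutation test, p = 0.0667, the smallest that 15 regroupings allow). Against all 11 brain chips, with a mean of 5.04% ± 4.03, the difference was 29.2 points (two-sided exact permutation test, p = 0.000733, the smallest that 1365 regroupings allow).

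Within the traced brain, the NFOL share was 0 of 63, 6 of 64, 3 of 68, 5 of 78, 6 of 72 and 6 of 59 wells on txE12.5 chips 5, 13, 14, 15, 16 and 17. It was 0 of 70, 1 of 57 and 1 of 70 on txP3 chips 18, 19 and 20. Apart from txE12.5 chip 5, every txE12.5 chip lay above every txP3 chip, and the counts of 0 allow shares of up to 4.76% on chip 5 and 4.29% on chip 18. The means were 6.45% ± 3.79 (n = 6) and 1.06% ± 0.933 (n = 3), and the difference of 5.39 points did not pass the test (two-sided exact permutation test, p = 0.0833). It passed without chip 5 (6.68 points, exact p = 0.0179). The txE12.5 and txP3 chips carried different sample numbers in the file headers, so tamoxifen time and sample number cannot be told apart. The 2 txP3 wells were too few for any test of gene levels between the tamoxifen times.

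**Figure D1:**
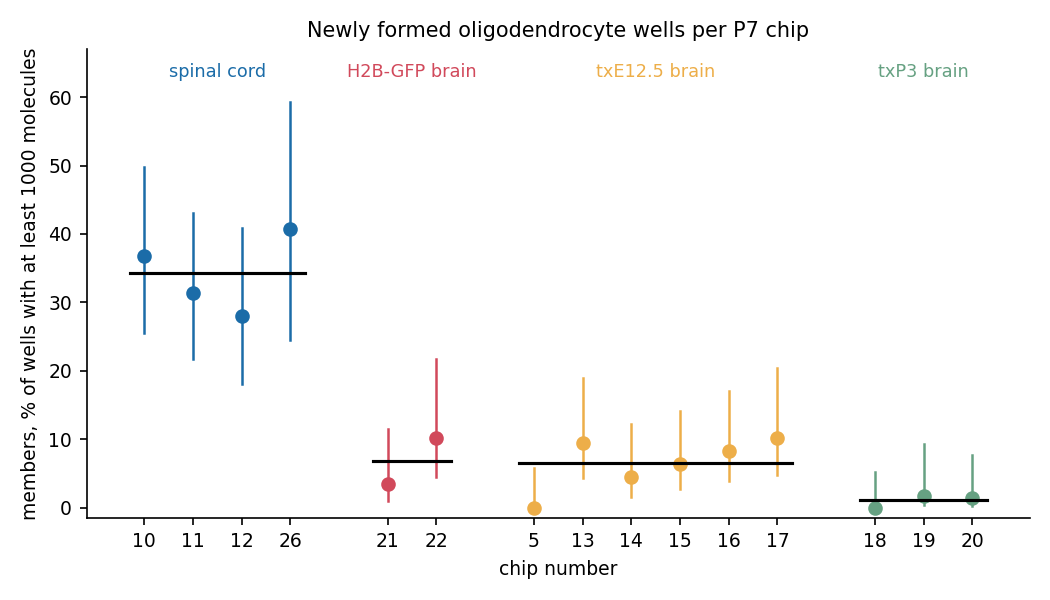
Share of NFOL wells among the wells with at least 1000 molecules (percent, linear axis) on each of the 15 P7 chips, with Wilson 95% intervals for counting error and a bar at the mean of each group. The 4 spinal cord chips lie between 28.1% and 40.7% and the 11 brain chips between 0% and 10.2%.

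At E13.5 none of 502 wells met the rule, and the highest share of the 5 myelin genes in a well with fewer than 3 collagen and matrix molecules was 0.0763%. At P7 the wells just outside the threshold had shares of 0.379%, 0.393% and 0.395%, and those just inside had 0.404%, 0.409% and 0.411%. After every well was thinned to 1000 molecules, 111 wells met the rule, of which 96 were among the 105. Another 4 P7 wells past the myelin threshold were kept out by their collagen molecules.

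The NFOL wells were compared with the COP-marker wells (494 wells over the 15 chips, with Gpr17, Bmp4 and Neu4 at 0.1% or more) and with the precursor wells (157 of the remaining wells, with Pdgfra and Cspg4 at 0.1% or more). Gene levels were compared on the 9 chips that held at least 5 wells of each class, with 98 NFOL, 245 COP-marker and 75 precursor wells, and molecules were summed per chip and scaled to a common total (CPM, the molecules of a gene per 1000000). Pooled over the 15 chips, whose depth and mix of classes differed, NFOL wells held a median of 5035 molecules (1044 to 20610) against 2991.5 and 2529, and a median of 2203 genes against 1566.5 and 1340. The order of the molecules did not hold on every chip. On spinal cord chip 26 the NFOL median was 1650 against 2814 and 2978, on brain chip 21 it was 2557.5 against 2868.5 and 2904, and on brain chip 22 it was 2007 against 2018 and 1810.5. A gene is called higher or lower here when its mean log2 ratio, with 50 CPM added, was at least 1 in size with the same sign on all 9 chips. Against COP-marker wells 92 of 14865 genes (0.619%) were called higher and 109 (0.733%) lower, and against precursor wells 170 (1.14%) higher and 113 (0.76%) lower. When wells were thinned to 1000 molecules these calls fell to 40 and 63 against COP-marker wells and to 66 and 31 against precursor wells. With the COP genes at 0.5% or more, on 8 chips, they were 65 and 32 against COP-marker wells. The balance of the directions thus depended on this threshold. These shares are the background of every count of called genes between classes below, and since the rule used the contrast nothing is read from the counts.

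Of 23 myelin protein genes outside the rule, 7 were called higher and 1 lower than in COP-marker wells, and 8 higher and 1 lower than in precursor wells. Cnp, an enzyme bound to the myelin membrane and no part of the rule, stood at 3008 ± 435 CPM (SD, n = 9 chips) in NFOL wells, 792 in COP-marker wells and 212 in precursor wells. Cldn11, which forms the tight junctions of myelin, stood at 1268 ± 778, 120 and 46.2 CPM. The 1 gene called lower in both comparisons was Gpm6b, a membrane glycoprotein, at 445 CPM against 924 and 1064. Among the rule's own genes, Mbp, which compacts the sheath, stood at 7738 ± 2240, 717 and 207 CPM, and Mag, the adhesion molecule that faces the axon, at 1078 ± 767, 25.1 and 18.4 CPM. For Mag the COP-marker wells were hardly above the precursor wells, whereas for Cnp and Mbp the COP-marker wells lay between the other classes. Of 31 genes for myelin lipids, 2 were called higher than in COP-marker wells and 4 than in precursor wells, and none lower. Ugt8a, which makes galactosylceramide, stood at 1643, 394 and 206 CPM, and Elovl7, which lengthens fatty acids, at 339, 60.5 and 34.6 CPM.

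Genes of the newly formed stage, a list that overlaps the marker genes of the label (Enpp6, Nfasc, Tcf7l2, Sirt2 and others), had 13 of 28 members called higher than in COP-marker wells and 18 than in precursor wells, and none lower. Nfasc, an adhesion molecule of the axon-glia contact, stood at 3837 ± 1117 CPM against 480 and 156, and Enpp6, a choline phosphodiesterase used as a marker of this stage, at 1410 ± 296 against 267 and 29.1. The RNA 9630013A20Rik, annotated as antisense, stood at 2991 ± 761 against 446 and 67.1. Enpp6 was present in 99 of 105 NFOL wells (94.3%), in 123 of 494 COP-marker wells (24.9%) and in 6 of 157 precursor wells (3.82%). With all wells thinned to 1000 molecules these shares were 67.6%, 12.3% and 1.27%. In GENCODE M21 (GRCm38) Enpp6 lies on chromosome 8 at 46986887 to 47096762, plus strand, Nfasc on chromosome 1 at 132564690 to 132741797, minus strand, and 9630013A20Rik on chromosome 14 at 84458639 to 84476424, minus strand.

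Regulators and signalling genes had calls in both directions. Of 28 transcription factor genes of differentiation, 4 were called higher and 3 lower than in COP-marker wells, and 5 higher and 4 lower than in precursor wells. Tcf7l2, a nuclear partner of beta-catenin active at the onset of differentiation, stood at 588 ± 291 CPM against 225 in COP-marker wells and 59.5 in precursor wells. Myrf, the membrane-bound activator of myelin genes, stood at 407 against 131 and 67.6 CPM, and Sox4 at 880 against 287 and 209. Etv5, a factor of growth factor signalling, stood at 14.4 CPM against 176 and 250. Of 41 receptor and signalling genes, 1 was called higher and 2 lower than in COP-marker wells, with 1 and 1 against precursor wells. The neurotrophin receptor gene Ntrk2 was among the lower ones, at 88.0 CPM against 294 and 299.

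Most calls among genes that shape the cell were higher in NFOL wells. Of 28 cytoskeleton genes, 6 were called higher than in COP-marker wells and 10 than in precursor wells, with 1 lower than in the latter. The tubulin gene Tubb4a stood at 1457 CPM against 343 and 192, the microtubule-associated protein gene Map1b at 1585 against 392 and 120, and the deacetylase Sirt2, which acts on tubulin, at 3958 against 1193 and 312. The 1 lower gene was Stmn1, which takes microtubules apart, at 60.1 CPM against 261 in precursor wells. The 10 genes with the largest ratio over COP-marker wells also included Chn2, a GTPase activator for Rac (1211 against 121 and 50.2 CPM), Frmd4a (854 against 85.7 and 46.8 CPM) and Rasgef1b (533 against 61.4 CPM, and 0 in precursor wells).

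The COP genes Gpr17, Bmp4 and Neu4 were each found in most NFOL wells at full depth, while some precursor genes were lower than in the other classes. Gpr17, a receptor of the committed stage, stood at 2555 ± 963 CPM in NFOL wells, 3475 ± 897 in COP-marker wells and 401 ± 91.0 in precursor wells, and the COP class was defined with it. Of 17 committed precursor genes, 3 were called higher than in COP-marker wells and 10 than in precursor wells, and none lower. A molecule of Gpr17 was found in 99 of 105 NFOL wells (94.3%), of the secreted factor Bmp4 in 67 (63.8%) and of the sialidase Neu4 in 62 (59.0%). With all wells thinned to 1000 molecules these shares were 72.4%, 37.1% and 26.7%, and Sox11, on the same list, was found in 37 of 105 NFOL wells at full depth (35.2%). In 85 NFOL wells (81.0%, Wilson 95% interval 72.4 to 87.3) the 3 genes together reached the 0.1% that defined the COP-marker wells, so most NFOL wells would have been COP-marker wells without the myelin rule. Pdgfra stood at 272 ± 250 CPM against 1292 and 2278, and Cspg4 at 143 ± 189 against 479 and 894. A molecule of Pdgfra was found in 33 of 105 NFOL wells (31.4%, 23.3 to 40.8), in 407 of 494 COP-marker wells (82.4%) and in 154 of 157 precursor wells (98.1%). Of 25 precursor genes 10 were called lower and none higher than in COP-marker wells, and 11 lower and 1 higher (Tnr, an extracellular matrix glycoprotein) than in precursor wells. The pleiotrophin gene Ptn stood at 416 CPM against 1312 and 2052, and Sdc3, a heparan sulfate proteoglycan, at 187 against 738 and 1221.

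**Figure D2:**
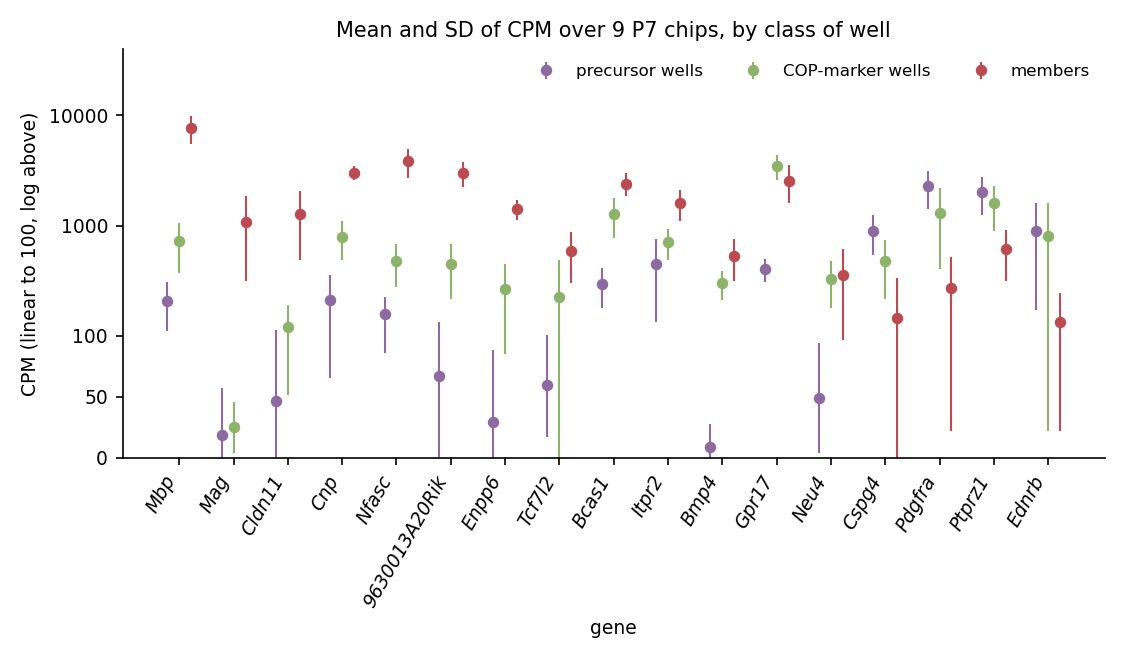
Mean and SD over 9 P7 chips of the CPM of 17 genes in precursor, COP-marker and NFOL wells, on an axis linear to 100 CPM and logarithmic above. Cnp stands at 212, 792 and 3008 CPM in the 3 classes, in that order, and Pdgfra at 2278, 1292 and 272 CPM. The classes were chosen with some of these genes.

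Cell cycle genes were at low levels. Of 20 such genes 3 were called lower than in COP-marker wells and 2 than in precursor wells, and none higher. Ccnd1, the cyclin of entry into the cycle, was called lower against both, at 94.8 CPM against 296 and 636. The summed level of the 20 genes was 607 to 1219.5 CPM over the chips in NFOL wells, 1025 to 2859 in COP-marker wells and 1913 to 5497 in precursor wells. A molecule of Mki67, Top2a, Cdk1 or Ccnb1 was found in 14 of 105 NFOL wells (13.3%), 130 of 494 COP-marker wells (26.3%) and 50 of 157 precursor wells (31.8%). At 1000 molecules a well, these shares were 8.57%, 18.2% and 28.0%. Of 19 immediate early and heat shock genes, which respond to activity and to handling of the tissue, 1 was called lower than in COP-marker wells (Egr1, 17.3 against 112 CPM) and none against precursor wells.

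Markers of other cell types were near 0 in NFOL wells. All 5 microglia genes were at 0, 4 of 5 endothelial genes and 4 of 5 pericyte genes were at 0, and red blood cell RNA was found in 1 well. Over the 9 chips the summed level reached at most 93.1 CPM for the 5 neuronal genes and 93.1 CPM for the 5 astrocyte genes. It reached 94.8 CPM for the 5 pericyte genes, with a molecule in 4 wells, and 237 CPM for the 5 collagen and matrix genes. All these maxima were on brain chips. The collagen and matrix level was bounded by the rule, which allowed fewer than 3 of their molecules in a well, so it is no evidence on the label. One of the 105 wells held at least 3 molecules from 2 or more genes of another cell type list. As a check of the region labels, 27 of 31 Hox genes with a molecule in these P7 wells were seen in NFOL wells, and their summed level was 239 to 459 CPM on the spinal cord chips and 0 to 94.8 CPM on the brain chips.

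The wells were ranked by the share of the 5 rule genes, which is a description and no check of the label, and 34 wells lay at 0.4% to 0.6%, 21 at 0.6% to 0.8%, 26 at 0.8% to 1.2%, 22 at 1.2% to 3% and 2 at 3% or more. From the lowest to the highest of the first 4 ranges, Ugt8a was at 883, 1626, 1750.1 and 2392 CPM and Cldn11 at 392, 871, 1346 and 2792 CPM. Over these ranges Gpr17 was at 2715, 2228, 2471 and 1419 CPM, Bmp4 at 752, 413, 451 and 187 CPM and Pdgfra at 484, 359, 127 and 66.6 CPM. In these pools Ugt8a and Cldn11 were thus higher, and Gpr17, Bmp4 and Pdgfra lower, in the top range than in the bottom one. Other genes of the same lists went otherwise, with the COP-list genes Sox4 at 615 and 873 CPM and Sox11 at 150.5 and 153 CPM in the bottom and top range. Gpr17 differed in this by region: in brain wells it was at 3417, 2518, 3243 and 3222 CPM and in spinal cord wells at 2323, 2066, 2194 and 1193 CPM, so the low value of the top range came from the spinal cord. Nfasc (2355, 3557, 4142 and 6343 CPM) was higher in each successive range, in the pool and in either region. Enpp6 (1079, 1365, 1639 and 1759 CPM) and 9630013A20Rik (1982, 2632, 3833 and 4844 CPM) were so in the pool and in the spinal cord, but in brain wells they were at 1671 and 2685 CPM in the top range against 1891 and 5374 CPM in the range before it. Tmem2, a cell surface hyaluronidase, was at 6.54, 26.9, 55.4 and 793 CPM. These are pools of wells from several chips, with spinal cord and brain wells at 20 and 14, 12 and 9, 18 and 8, and 18 and 4, so they carry no error over chips and their mix of regions changes from range to range.

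**Figure D3:**
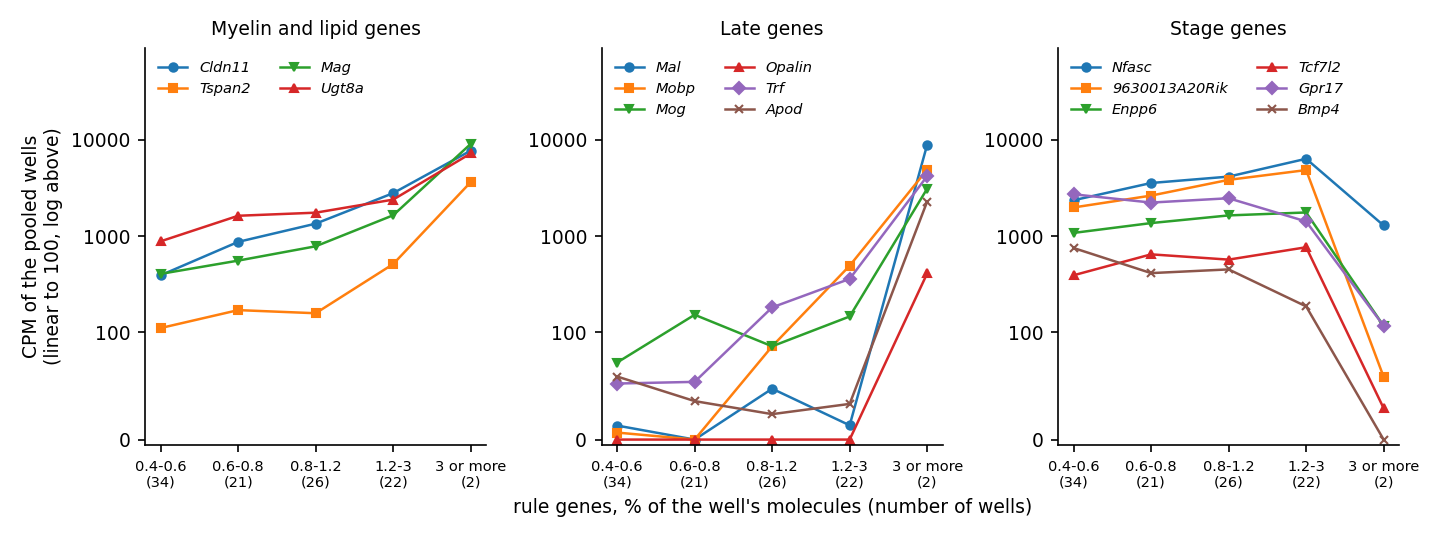
CPM of NFOL wells pooled by the share of the 5 rule genes in the well (percent, with the number of wells below each range), for myelin and lipid genes, late genes and stage genes, on an axis linear to 100 CPM and logarithmic above. From the 22 wells at 1.2% to 3% to the 2 wells at 3% or more, Cldn11 goes from 2792 to 7701 CPM and Enpp6 from 1759 to 117 CPM.

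The 2 wells at 3% or more, with shares of 4.02% and 4.47% and 13542 and 20610 molecules, came from spinal cord chip 10. They held 303 of the 313 molecules of Mal (96.8%), a lipid raft protein of compact myelin, and all 14 molecules of Opalin, a protein of mature oligodendrocytes. They also held 106 of 167 molecules of the myelin surface protein gene Mog (63.5%), 167 of 253 of Mobp (66.0%), 143 of 234 of the transferrin gene Trf (61.1%) and 78 of 99 of Apod (78.8%), a lipid carrier of late oligodendrocytes. By contrast they held 4 of 792 Enpp6 molecules, 1 of 320 of Tcf7l2, 2 of 1809 of 9630013A20Rik, 4 of 1192 of Gpr17 and none of the 246 of Bmp4. These 5 genes were near absent in the 2 wells, but other genes of the stage lists were present there, with Tspan2 at 3631 CPM, Nfasc at 1288 CPM, Sirt2 at 1201 CPM and Bcas1 at 527 CPM. No type name is given to them, and the results that rest on chip 10 are given with and without them.

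Without these wells Mal on chip 10 went from 2155 to 9.36 CPM, Mobp from 1312 to 168, Mog from 879 to 168, Trf from 1184 to 225, Apod from 581 to 37.4 and Opalin from 99.3 to 0. Mag went from 2921 to 964 CPM and Cldn11 from 2985 to 1478 CPM, against 662 to 1187 CPM of Mag and 1229.8 to 1880.3 CPM of Cldn11 on the other 3 spinal cord chips. Among all 105 wells a molecule of Mag was found in 89, of Mog in 28, of Mobp in 13, of Mal in 9 and of Opalin in 2. Of the rule's 5 genes, Mal, Mobp and Mog were thus absent from most NFOL wells at this depth, while Mbp was found in all 105. Klk6, another mature gene, had 0 molecules in the 105 wells. Of 27 mature genes with a molecule, 1 was called lower than in COP-marker wells (Apoe, an apolipoprotein) and 1 higher than in precursor wells (S100b, a calcium-binding protein).

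**Figure D4:**
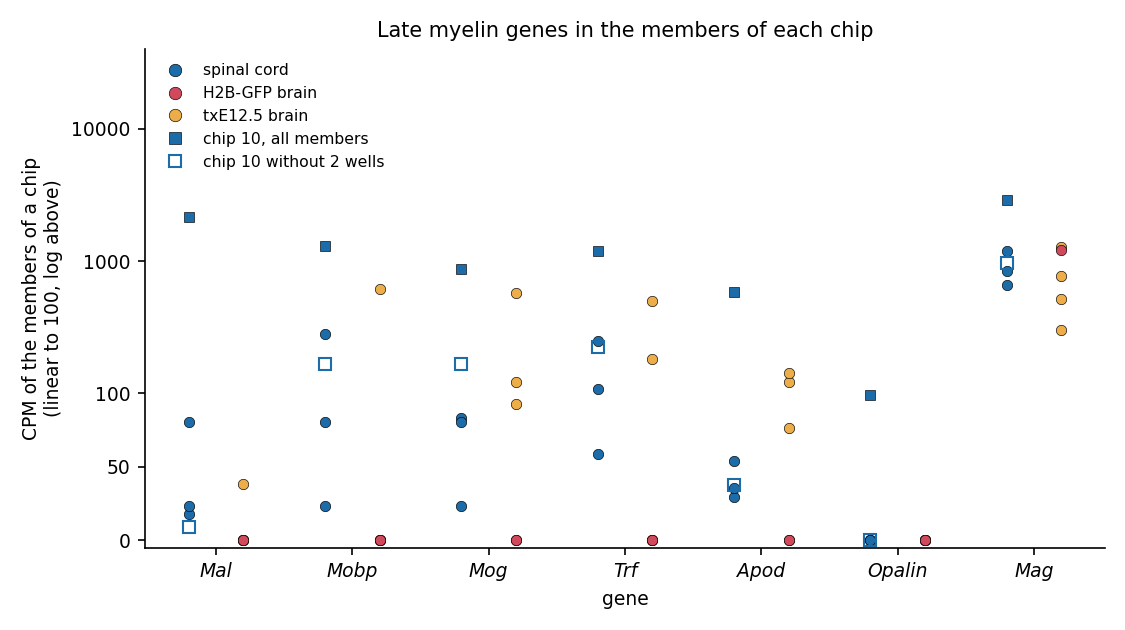
CPM of 7 late or myelin genes in the NFOL wells of each of 9 chips, on an axis linear to 100 CPM and logarithmic above, with chip 10 drawn as a filled square with all its NFOL wells and as an open square without the 2 wells at 3% or more. Mal on chip 10 is 2155 CPM with them and 9.36 CPM without.

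The study asked whether cells of the lineage differ between regions. For NFOL wells this was asked over the 4 spinal cord chips and the 5 brain chips with at least 5 such wells (chips 13, 15, 16 and 17 of txE12.5 and chip 22 of the Pdgfra-H2BGFP line), with molecules summed per chip. The median number of molecules in an NFOL well was 4893.5 ± 2404 on the spinal cord chips and 3789 ± 1483 on the brain chips (two-sided exact permutation test, p = 0.397). After a filter on low counts 591 genes were tested, and 10 passed an adjusted p of 0.05 by edgeR's quasi-likelihood test (1.69%), 8 higher (1.35%) and 2 lower (0.338%) in the spinal cord. An unadjusted p under 0.05 was found for 114 genes. The count was 36 without txE12.5 chip 13, 4 without txE12.5 chip 17, 5 without spinal cord chip 11 and 6 without spinal cord chip 10, and it was 11 without the 2 wells at 3% or more. With separate terms for the brain groups, 7 of 1548 genes passed, all 7 higher in the spinal cord and 5 of them among the 10. Cd9, Slc12a2, Kif5b, Gm13826 and Pisd-ps3 did not pass there.

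Secisbp2l, a relative of the selenocysteine insertion factor Secisbp2, was higher in the NFOL wells of the spinal cord. It stood at 1099, 621, 497 and 809 CPM on spinal cord chips 10, 11, 12 and 26, and at 0 on brain chips 15, 16 and 22, 38.3 on chip 17 and 310 on chip 13. Every spinal cord chip lay above every brain chip. The spinal cord chips alone were enough for Secisbp2l to pass the filter on low counts. Its place among the genes tested is thus due to the region where it was high and adds no support. The log2 fold change was 2.99 ± 0.546 (SE, edgeR, adjusted p = 0.00249). In the precursor wells of the same chips it stood at 54.2 ± 35.0 and 75.7 ± 59.1 CPM, and the difference of the regional effects between the classes, 3.70 ± 1.15 on the log2 scale, did not pass (adjusted p = 0.278). The regional call held in 17 of 19 other settings and was lost by DESeq2 (3.28, adjusted p = 0.0895) and against the Pdgfra-H2BGFP brain chip alone (edgeR, adjusted p = 0.0510). Secisbp2l lies on chromosome 2 at 125736986 to 125782870, minus strand (GRCm38).

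Cd9, a tetraspanin of the cell surface, was lower in the spinal cord. It stood at 1879, 1528, 2105 and 1457 CPM on chips 10, 11, 12 and 26 and at 5715, 2359, 7222, 3509 and 3949 CPM on brain chips 22, 13, 15, 16 and 17. The lowest brain chip was above the highest spinal cord chip, and the log2 fold change was -1.28 ± 0.290 (SE, edgeR, adjusted p = 0.0124). In precursor wells of the same chips the log2 fold change was -1.13 (edgeR, adjusted p = 0.0292), and the difference of the regional effects between the classes was -0.04 ± 0.391 (adjusted p = 0.974). The regional call in NFOL wells held in 12 of 21 other settings. It was lost with separate terms for the brain groups (-1.23, edgeR, adjusted p = 0.0592) and without the filter (-0.85, 0.137). Leaving out spinal cord chip 11 (-1.19, 0.0848) or 26 (0.0566) also lost it. In the NFOL wells under 0.8% it was lost with -0.88 (edgeR, adjusted p = 0.138) on chips with at least 5 of them. With at least 3 of them it was lost with -0.74 (0.124). Cd9 lies on chromosome 6 at 125460266 to 125494791, minus strand.

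The ion cotransporter gene Slc12a2 (561 to 638 CPM in the spinal cord, 60.7 to 427 CPM in the brain) and the kinesin heavy chain gene Kif5b (461 to 701 and 81.6 to 379 CPM) were higher in spinal cord NFOL wells, by 1.59 ± 0.378 and 1.46 ± 0.386 on the log2 scale (SE, edgeR, adjusted p = 0.0191 and 0.0465). Slc12a2 passed in 11 of 20 other settings and Kif5b in 7 of 20, and neither passed with separate terms for the brain groups (1.51, adjusted p = 0.107, and 2.24, 0.0760) or without any 1 of chips 10, 11, 12, 15 and 17. In the wells under 0.8%, on chips with at least 5 of them, Slc12a2 had a log2 fold change of 0.16 (adjusted p = 0.954). The elongation factor gene Eef1a1 stood at 3304 to 3965 CPM in the spinal cord and at 816 to 1956 CPM in the brain (log2 fold change 1.34 ± 0.287, adjusted p = 0.00899). The symbol Gm9846 stood at 2554 to 3219 and 408 to 2003 CPM (1.69 ± 0.343, adjusted p = 0.00685), and Gm13826 at 125 to 248 and 342 to 1699 CPM (-2.14 ± 0.381, adjusted p = 0.00249). Neither symbol was matched in GENCODE M21. Eef1a1 has near-identical copies in the genome, and how the counting shared reads among such copies is not given in the sources used here, so the values of Eef1a1, Gm9846, Gm13826 and the pseudogene symbol Pisd-ps3 are uncertain. The other 3 genes past the threshold, named after their values were seen, were Gas5, a host of small nucleolar RNAs (1.29 ± 0.324, adjusted p = 0.0306, passing in 10 of 21 other settings and not without any 1 of chips 10, 11, 12, 17, 22 and 26), and Ybx1 and Pisd-ps3, whose chips overlapped between the regions (1.78 and 2.66). Without chips 10, 11 and 12 in turn, the log2 fold change of Gas5 was 1.32, 1.29 and 1.27. Pisd-ps3 stood at 4829 CPM on spinal cord chip 26 and at 639 to 901 CPM on the other 3 spinal cord chips.

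In the precursor wells of the same chips Gm9846, Eef1a1, Ybx1, Gas5 and Gm13826 also passed, with log2 fold changes of 1.77, 1.55, 1.80, 1.2 and -2.63 against 1.69, 1.34, 1.78, 1.29 and -2.14 in NFOL wells. Both classes come from the same chips, so the values are not independent. Kif5b and Pisd-ps3 did not pass there, Secisbp2l and Slc12a2 were not among the genes tested there, and for none of the 10 genes did the difference between the classes pass.

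**Figure D5:**
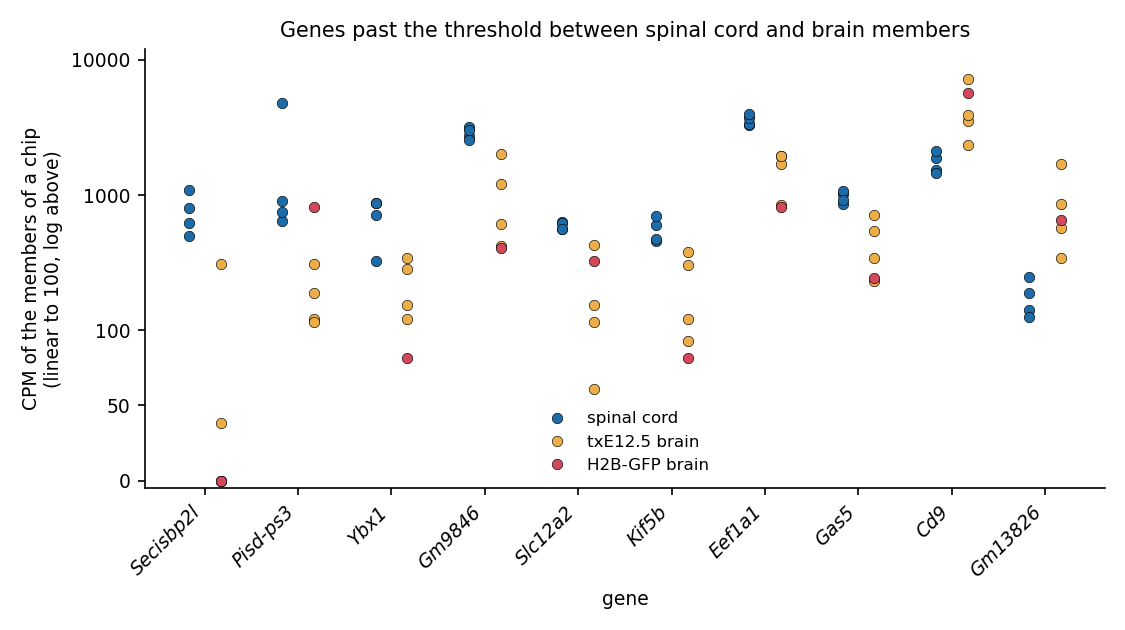
CPM in the NFOL wells of each chip for the 10 genes past the threshold between spinal cord (4 chips) and brain (5 chips), on an axis linear to 100 CPM and logarithmic above. The chips of the regions do not overlap for 8 of the 10 genes and overlap for Pisd-ps3 and Ybx1.

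Some myelin and stage genes outside the rule were among the genes tested. Of 11 myelin protein genes tested none passed as higher in the spinal cord and 1, Cd9, passed as lower, and none of the 18 newly formed stage genes passed, where 1.69% of all genes did. With 11 and 18 genes tested these counts cannot be told apart from that share, and nothing is read from them. Gpr17 stood at 1702, 1809, 1561 and 1834 CPM on the spinal cord chips and at 4082, 2359, 3398, 3794 and 2454 CPM on the brain chips, without overlap. Its log2 fold change of -0.81 did not pass by edgeR (adjusted p = 0.103), and it passed by DESeq2 (-0.76, adjusted p = 0.0167) and in edgeR without chip 13 (-0.89, 0.0459), 2 of 21 other settings. Cldn11 had a log2 fold change of 1.29 (edgeR, adjusted p = 0.0565) and passed in 7 of 21 other settings, DESeq2 among them (1.33, adjusted p = 0.0379). In the edgeR fit it was 0.89 (adjusted p = 0.137) without the 2 wells at 3% or more, 0.90 (0.282) without chip 10 and 0.44 (0.723) in the wells under 0.8%. Enpp6, at 1120 to 1592 CPM in the spinal cord and 1024 to 1840 CPM in the brain, had a log2 fold change of 0.04 ± 0.277 (adjusted p = 0.965). The rule gene Mbp, given as a description, stood at 10522, 11025, 8774 and 8929 CPM on chips 10, 11, 12 and 26 and at 7348, 6146, 5098, 4742 and 7054 CPM on brain chips 22, 13, 15, 16 and 17, without overlap.

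A fit without the filter on low counts gave other calls. With all 12070 genes that had a molecule, 75 genes passed (0.621%), 66 higher (0.547%) and 9 lower (0.0746%). The median log2 fold change of all genes moved from -0.04 to 0.60, so folds in this fit are read against that value. The adjusted p-values of the fits without the filter, here and below, test against 0 and not against that median. Calls as higher in the spinal cord thus include this shift of all genes. Of 23 myelin protein genes outside the rule, Cldn11 and Tspan2 then passed as higher and none as lower. Without the 2 wells of chip 10, where 46 of 11987 genes passed as higher (0.384%) and the median was 0.55, Cldn11 kept the call (1.72 to 1.31, adjusted p = 0.00953) and Tspan2 lost it (1.80 to 0.79, 0.560). Of 28 newly formed stage genes 3 passed as higher in the fit without the filter and none as lower, and without the 2 wells it was 1 of 27. Of 24 mature oligodendrocyte genes outside the rule Trf passed as higher and 1 as lower, and without the 2 wells Trf did not pass (2.06 to 0.66, adjusted p = 0.642). The lower one, Ptgds, a prostaglandin D synthase, stood at 0, 11.9, 0 and 0 CPM on spinal cord chips 10, 11, 12 and 26. On brain chips 22, 13, 15, 16 and 17 it stood at 81.6, 31.0, 60.7, 1138 and 115 CPM, without overlap but with most of it on chip 16. The NFOL wells of chips 22, 13 and 15 held 12248, 32215 and 16478 molecules in all. Their values, and so the lack of overlap, rest on very few Ptgds molecules. The log2 fold change was -5.003 (edgeR, adjusted p = 9.6e-07), and -4.94 without the 2 wells (1.36e-06). The size of this fold depends on the prior count. Of the rule genes, as a description, Mal went from a log2 fold change of 6.23 to 1.62, Mobp from 2.18 to 0.52, Mag from 1.28 to 0.53, Mog from 1.21 to -0.53 and Mbp from 1.18 to 1.05 without these 2 wells.

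None of the 8 lipid synthesis genes tested with the filter passed between the regions, where 1.69% of all genes did, and nothing is read from this count. Without the filter 3 of 31 passed as higher in the spinal cord, where 0.547% of all genes did, and none as lower. Of these 3 genes 2, Scd2 and Elovl6, passed without the 2 wells. Scd2, a fatty acid desaturase, stood at 2680, 1606, 1667 and 1511 CPM on chips 10, 11, 12 and 26 and at 1715, 869, 486, 1043 and 652 CPM on brain chips 22, 13, 15, 16 and 17. The Pdgfra-H2BGFP brain chip 22 lay within the spinal cord range and the 4 txE12.5 chips below it. For the txE12.5 chips region and mouse line cannot be told apart. The log2 fold change of Scd2 was 1.53 without the filter (edgeR, adjusted p = 0.000759) and 1.31 without the 2 wells (0.00838). With the filter it was 1.10 and did not pass (0.0627). Elovl6, which lengthens fatty acids, stood at 291, 203, 130 and 324 CPM on the spinal cord chips, at 81.6 and 76.7 CPM on brain chips 22 and 17 and at 0 on chips 13, 15 and 16. The groups did not overlap, and the log2 fold change without the filter was 3.39 (adjusted p = 0.00201), or 3.30 without the 2 wells (0.00579). The other gene, Cyp51 of cholesterol synthesis, lost the call without the 2 wells (1.47, adjusted p = 0.0596).

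Tmem2 stood at 411, 316, 70.9 and 351 CPM on spinal cord chips 10, 11, 12 and 26, at 38.3 CPM on brain chip 17 and at 0 on the other 4 brain chips. Its molecules came from 20 of the 105 wells, and the groups did not overlap (log2 fold change 5.07 ± 0.846 without the filter, adjusted p = 3.07e-06, and 5.15 without the 2 wells). The size of this fold depends on the prior count, since the brain wells held almost no molecule. Tmem2 varied with the share of the rule genes. In the 1.2% to 3% range it was at 892 CPM in 18 spinal cord wells and at 0 in 4 brain wells, in the 0.8% to 1.2% range at 64.5 CPM in 18 spinal cord wells and 30.0 CPM in 8 brain wells, and in the lower ranges at 10.2 and 41.9 CPM against 0. At matched ranges Gpr17 was lower in the spinal cord pool each time.

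The X-linked RNA Xist, made in female cells, was at 0 on all 4 spinal cord chips and on brain chips 15, 16 and 17, at 327 CPM on chip 22 and at 2235 CPM on chip 13. The Y-linked gene Ddx3y was at 60.7 to 307 CPM on 8 of the 9 chips and at 0 on chip 13. Sex thus differed between chips, with the one chip without Y-linked RNA in the brain, and its part in the regional values was not tested.

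Malat1, a nuclear long noncoding RNA, was the 1 gene of 629 (0.159%) whose regional difference differed between NFOL and precursor wells of the same chips. In NFOL wells it stood at 75313, 50546, 51143 and 62773 CPM on chips 10, 11, 12 and 26 and at 42946, 77045, 39143, 56146 and 64947 CPM on brain chips 22, 13, 15, 16 and 17, so the regions overlapped (log2 fold change 0.16, edgeR, adjusted p = 0.824). In precursor wells it stood at 36567 to 52238 CPM in the spinal cord and at 61150 to 103412 CPM in the brain, without overlap (log2 fold change -1.12, adjusted p = 0.000275). The difference of these regional effects was 1.41 ± 0.240 on the log2 scale (SE, edgeR with chip as a block, adjusted p = 0.00164). Over 17 other settings it lay between 0.87 and 1.63 and passed in 15. It did not pass when only NFOL wells under 0.8% were used (1.26, adjusted p = 0.209, with at least 5 wells a chip), where no gene passed by edgeR's test and 83 genes had an unadjusted p under 0.05. The part of nuclear RNA content or RNA quality in this difference was not tested.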

How the data were processed

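Single-cell RNA sequencing was done on 96-well chips, and the authors deposited 1 table of raw molecule counts (unique molecular identifiers) per chip, with wells as columns. The submitters' processing notes name the mm10 genome, and the aligner is not given in the sources used here. The members, gene lists and tests were chosen with earlier results of these data known. Wells with at least 1000 molecules (mitochondrial, spike-in and marker rows left out) were kept, 1514 of 2496, without a doublet caller; 1 NFOL well carried 3 or more molecules spread over 2 or more markers of another cell type. No well name was shared between chips. Member molecules were summed per chip and tested with edgeR 4.0.16 (R 4.3.3, limma 3.58.1) by the quasi-likelihood test with TMM normalization, filterByExpr and Benjamini-Hochberg adjustment over all genes tested, in chips with at least 5 members; DESeq2 1.42.0 was the alternative tool. The interaction fit compared NFOL and precursor wells with chip as a block. Shares and medians were compared by two-sided exact permutation tests over all regroupings of the chips. Wilson 95% intervals (scipy 1.17.1) and the limits for counts of 0 (3 counts) cover counting error only. Named genes were those of the lists, the 10 genes with the largest ratio per direction between classes (at least 100 CPM in the higher class, same sign on every chip) and the 5 with the largest change per direction among tested genes past the threshold whose chips did not overlap. For simulated data, 200 genes drawn from those past the filter were changed by 2 on the log2 scale, with 1 common dispersion and no chip effects. The edgeR region fit recovered 77.5% of them with 9 false calls (526 genes tested). The interaction fit recovered 70% with 5 false calls (610 genes tested). Changed genes lost to the filter count as not recovered. Smaller changes, as most of those found between the regions, were not simulated. Alternatives were other rule thresholds and depths, tools, filters, brain chips and left-out chips. Chip 9 was left out because its labels conflict, and chip 23 by the rule. Counts of listed genes refer to those found in the tables, and some genes are not reported here.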

Additional observations from a re-analysis of the deposited data

Results flagged for a closer look

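Groups of 4 to 6 chips, 51 in all, were screened by the gap of the highest or lowest chip over the whole range (Dixon's criterion). The criterion was met in 10 groups and served only to pick values for a closer look. Its rate of about 1 group in 20 by chance does not hold for the rule genes, whose levels chose the wells. Nor does it hold for genes seen on 1 chip only, and no test is read from it. On spinal cord chip 10 it was met by Mal (2155 CPM), Trf (1184 CPM), Mog (879 CPM), Apod (581 CPM) and Opalin (99.3 CPM), each of which is given above without the 2 wells that hold most of these late molecules. Pisd-ps3 met it on spinal cord chip 26 (4829 CPM). Among the txE12.5 brain chips, chip 17 stood apart for Mobp (613 CPM), Mal (38.3 CPM) and Tmem2 (38.3 CPM), each at 0 on the other 3 txE12.5 chips. Chip 13 stood apart for Secisbp2l (310 CPM). For Mobp, Mal and Tmem2 on chip 17 and Opalin on chip 10 the other chips were at 0. The criterion was thus met there whatever the value, and nothing is read from it. Malat1 was singled out because its regional difference in NFOL wells differed from that in precursor wells by 1.41 on the log2 scale (edgeR, adjusted p = 0.00164). The GFP transcript, which no comparison used, was seen as 21 molecules in 17 of the 105 NFOL wells, in 6 of 70 in the spinal cord, 1 of 7 on the Pdgfra-H2BGFP brain chips, 10 of 26 at txE12.5 and 0 of 2 at txP3.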

How the results depend on the processing

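The larger NFOL share in the spinal cord kept its direction under every rule threshold, depth and left-out chip tried (27.1 to 31.3 percentage points against all brain chips and 24.1 to 30.9 against the Pdgfra-H2BGFP brain chips when 1 chip was left out). With a threshold of 0.8% it was 16.4 points (exact permutation p = 0.000733) and 14.3 points (exact p = 0.133). Chip 23, the spinal cord chip with another sample number, held 0 NFOL wells of 14 and did not itself show the larger share. With chip 23 included the difference from the Pdgfra-H2BGFP brain chips was 20.6 points (exact permutation p = 0.190). The comparison with all brain chips was not run with chip 23. The txE12.5 and txP3 difference of 5.39 points passed the test with a threshold of 0.2% (8.13 points, exact p = 0.0238), was 1.38 points at 0.8% (exact p = 0.405) and ranged from 4.65 to 6.68 with 1 chip left out. The number of genes past the threshold between regions, 10 by edgeR, was 25 by DESeq2 (of 2003 genes, 17 higher and 8 lower), 2 with the Pdgfra-H2BGFP brain chip alone as the brain (which assumes that this lone chip varies like the spinal cord chips), 3 with chips of at least 3 NFOL wells, 75 without the filter, 54 without the filter and the 2 wells at 3% or more, and 4 or 6 with NFOL wells under 0.8% on chips with at least 5 or 3 of them. It ranged from 4 to 36 with 1 chip left out. The cause of these moves was not tested. The count of 1 gene in the interaction fit was 0 in both fits under 0.8% (83 and 48 genes at an unadjusted p under 0.05) and ranged from 1 to 3 with 1 chip left out, 3 without txE12.5 chip 13. Malat1, not past the threshold between regions in NFOL wells, changed sign from a log2 fold change of 0.157 to -0.0288 and -0.469 under 0.8% (chips with at least 5 and 3 wells) and to -0.00146 without the 2 wells, and ranged from -0.0120 (without chip 10) to 0.329 (without chip 13) with 1 chip left out. Calls against COP-marker wells went from 201 to 103 after thinning and to 97 with COP genes at 0.5% or more (121 wells). With that threshold 65 were higher and 32 lower, of which 50 and 20 were among the main 92 and 109. With 10 CPM added in place of 50, 110 were higher and 186 lower. Pooled Gpr17 was at 6503 CPM in the 121 wells and 3197 CPM in all 494 COP-marker wells, and Pdgfra at 774 and 1841 CPM. Calls against precursor wells went from 283 to 97 after thinning. Gene tests with at least 10 NFOL wells a chip or a 0.8% threshold, and any gene test of txE12.5 against txP3, could not be fitted. For the comparisons between groups of chips, no paired analysis was possible because the labels give each chip a number of its own that no other group shares. Depth limits statements on Mal, Mobp and Opalin, which had no molecule in most wells. Alternatives for NFOL wells under 0.8% or without the 2 wells, the COP threshold of 0.5% and thinning between classes were chosen after seeing the data.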
